A study of Homo sapiens with 6 samples.

Results

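The genes described here are the 4 TSC22D paralogues (TSC22D1, TSC22D2, TSC22D3 and TSC22D4), the glucocorticoid receptor gene NR3C1, and FKBP5, PER1 and SGK1, which the receptor is known to induce. These 8 genes, of 19792 listed in the study's RNA-seq table, were chosen by name with the authors' comparison of doxycycline (DOX) and vehicle in view. BT-549 is an established human triple-negative breast cancer cell line, and the cells of all 6 libraries carried a puromycin-selected shRNA against WDR5, a core subunit of the COMPASS H3K4 methyltransferases, under a tetracycline-inducible promoter. The 3 vehicle cultures were given 0.1% DMSO and the 3 DOX cultures 500 ng/ml doxycycline, which switches on the shRNA. The study's text gives 7 days for the treatment. One shRNA in 1 transduced line was used, and no library of cells without the WDR5 shRNA is among the 6.

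What could be measured was the level of each gene over the 6 libraries together. The deposited table gives 1 mean normalized count per gene, pooled over the vehicle and DOX cultures, and the remaining columns hold the authors' own comparison of the groups, which was not used here. A pooled mean carries no error of its own, no library can be seen apart from the others, and a difference between DOX and vehicle cannot be read from it. The depth of each library is unknown. The mean normalized counts of all genes sum to 26551206, of which the 8 genes hold 0.0883%, and 68.5% of the listed genes have a mean normalized count of 10 or more. WDR5, the targeted gene, had a pooled mean normalized count of 1143, which does not check the silencing. The cell type was compared with its markers on the same scale. VIM, which encodes the mesenchymal filament vimentin, had a mean normalized count of 47782, whereas the epithelial adhesion gene EPCAM had 1.30, the estrogen receptor gene ESR1 had 0.790 and the progesterone receptor gene PGR had 0.801. ERBB2, the gene of HER2, had 1221, the epithelial genes CDH1, KRT8 and KRT18 had 59.6, 57.3 and 435, and the fibroblast and muscle genes COL1A1 and ACTA2 had 4755 and 4512. The leukocyte gene PTPRC had 44.7 and the endothelial gene PECAM1 2.86.

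The glucocorticoid receptor is a transcription factor of the nuclear receptor family. Without hormone it is held in the cytoplasm by HSP90 and its co-chaperones, and cortisol or a synthetic glucocorticoid moves it into the nucleus, where it binds a palindromic DNA element and raises or lowers its target genes. TSC22D3 is one of the best known of these targets and encodes GILZ, the glucocorticoid-induced leucine zipper, which restrains NF-κB and AP-1. FKBP5 encodes FKBP51, a co-chaperone that lowers the receptor's affinity for hormone, PER1 is a clock repressor, and SGK1 is a kinase related to AKT that acts on ion transport and cell survival. The other TSC22D proteins share with GILZ a leucine zipper and the adjacent TSC box, through which members of the family pair.

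All 8 genes were detected at a minimum mean normalized count of 10, which 68.5% of all listed genes reached. Their mean normalized counts ran from 138 for FKBP5 to 10851 for NR3C1. Counts grow with the length of a transcript, so levels were compared between genes as the mean normalized count per kilobase of the MANE Select transcript, the reference transcript agreed between Ensembl and RefSeq. On this scale, NR3C1 had the highest level at 1601, followed by TSC22D1 at 1144, SGK1 at 787, TSC22D4 at 360, TSC22D2 at 152, PER1 at 81.6, TSC22D3 at 77.4 and FKBP5 at 36.8. The level of NR3C1 was 43.5 times that of FKBP5, and this ratio was 46.3 per coding length, 79.7 per longest transcript and 91.2 per union of all exons. The median of all genes with a known length was 80.7 per kilobase, and 6 of the 8 genes lay at or above the middle of that distribution. Among genes whose mean normalized count reached 10, only 4 did (NR3C1, TSC22D1, SGK1 and TSC22D4), and TSC22D2 stood at the 42.6 percentile, PER1 at 30.03, TSC22D3 at 29.1 and FKBP5 at 18.96. With no spread between cultures to set against them, neighbours in this order, such as PER1 and TSC22D3 with a ratio of 1.05, cannot be told apart.

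**Figure D1:**
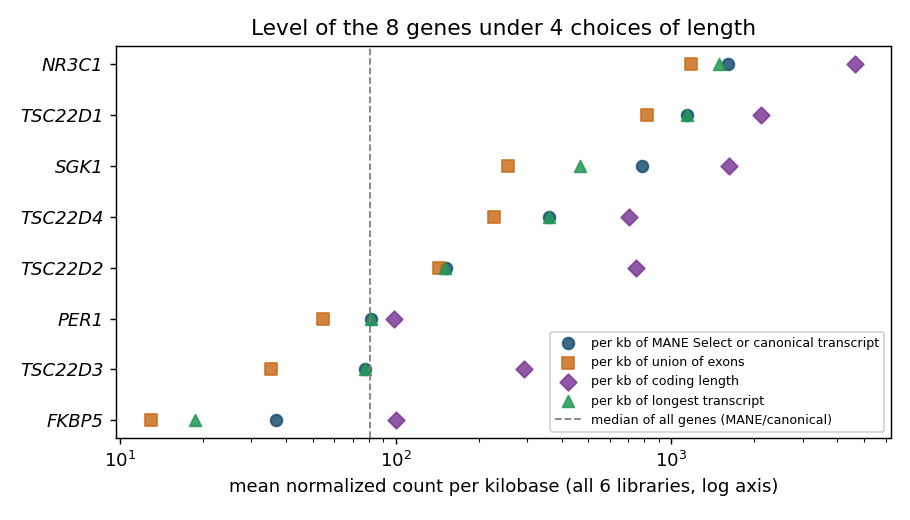
Mean normalized count per kilobase of the 8 genes (x axis, log scale, pooled over 6 libraries), with 1 marker for each of 4 ways to set a gene's length. The dashed line is the median of all genes per kilobase of the MANE Select or canonical transcript (80.7). It is not the median for the markers of the other lengths. NR3C1, TSC22D1 and SGK1 hold the top 3 places under all 4 lengths, while the lower places change when the coding length is used, which puts PER1 (98.6) below FKBP5 (100.7).

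TSC22D1 was the leading paralogue of the TSC22D family. It encodes the founding member, first described as a gene induced by TGF-β, and its mean normalized count was 6817. Per kilobase of transcript it made up 66.0% of the family's summed level, compared with 20.8% for TSC22D4, 8.76% for TSC22D2 and 4.46% for TSC22D3. TSC22D3 was therefore the lowest of the 4 per kilobase, with a mean normalized count of 176, and TSC22D1 was 14.8 times higher. TSC22D3 stayed the lowest of the 4 and TSC22D1 the highest with every length used, although their ratio ranged from 7.24 per coding length to 23.0 per union of all exons. The order of the middle pair did change with the length. TSC22D4, with a mean normalized count of 835, was 2.37 times as high as TSC22D2 per kilobase of transcript but 0.948 times as high per kilobase of coding sequence. TSC22D2 had the larger mean normalized count of the pair at 1687, on a transcript of 11110 bases of which 2268 are coding, whereas the TSC22D4 transcript has 2318 bases and 1185 coding bases.

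**Figure D2:**
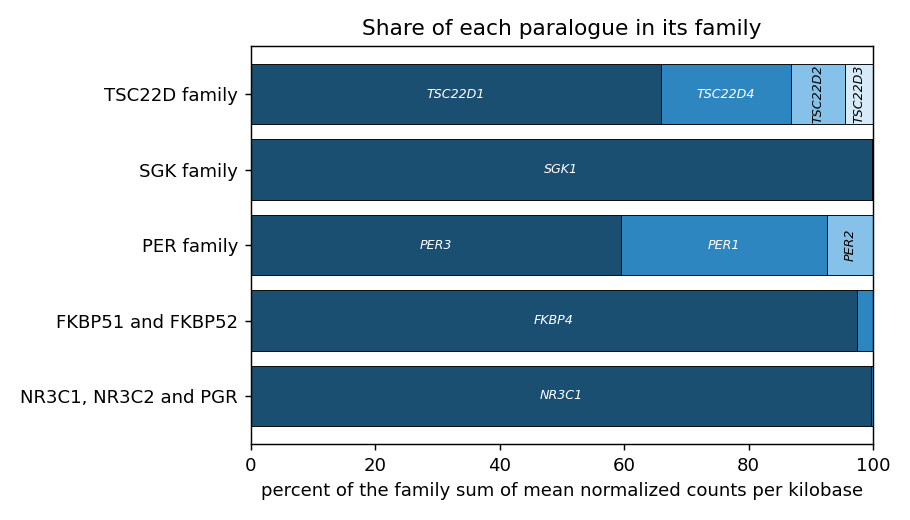
Percent of each family's summed mean normalized count per kilobase (x axis, pooled over 6 libraries) held by each paralogue, in 4 families and 1 set of 3 steroid receptor genes (NR3C1, NR3C2 and PGR) that contain the genes described. TSC22D1 (66.0%), SGK1 (99.7%) and NR3C1 (99.7% of the 3 genes) lead, whereas PER3 (59.6%) is above PER1 and FKBP4 (97.4%) is above FKBP5.

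The 4 family genes lie on different chromosomes of GRCh38 (positions from GENCODE 44). TSC22D1 is on the minus strand of chromosome 13 from 44432143 to 44577147, TSC22D2 on the plus strand of chromosome 3 from 150408298 to 150466422, TSC22D3 on the minus strand of chromosome X from 107713221 to 107777342, and TSC22D4 on the minus strand of chromosome 7 from 100463359 to 100479232. TSC22D1 and TSC22D3 have 12 and 18 annotated transcripts, and a count per gene adds them all, so long and short isoforms of these genes were not separated. Exons of the antisense gene TSC22D1-AS1 cover 5.61% of the TSC22D1 exonic bases, and its mean normalized count was 4.32. Exons of SPACDR on the same strand cover 10.7% of those of TSC22D4, and how the authors' counting assigned reads there is not given in the sources used here.

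NR3C1 was among the more abundant transcripts of these cells. Its mean normalized count of 10851 placed it 380th of 19792 genes, and per kilobase it stood at the 93.6 percentile, meaning that this percent of the genes with a known length lay below it. The gene is on the minus strand of chromosome 5 from 143277931 to 143435512. NR3C2, whose mineralocorticoid receptor also binds cortisol, had a mean normalized count of 25.6, and per kilobase NR3C1 was 362 times higher. This ratio ranged from 305 to 536 with the other lengths. PGR, the progesterone receptor gene, was at 0.801.

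SGK1 was the only SGK paralogue whose mean normalized count reached 10. Its mean normalized count was 2553, compared with 3.05 for SGK2 and 1.44 for SGK3, and per kilobase it held 99.7% of the family's level. A limit applies to SGK3, since exons of the read-through gene C8orf44-SGK3 on the same strand cover 43.98% of its exonic bases, and reads that 2 genes share can be lost or split in counting. SGK1, on the minus strand of chromosome 6 from 134169248 to 134318112, stood at the 86.6 percentile per kilobase. Its level was 787 per kilobase of the MANE Select transcript, 256 per kilobase of the union of all exons and 1618 per kilobase of coding sequence.

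FKBP5 was the lowest of the 8 genes per kilobase of transcript, although per kilobase of coding sequence PER1 was lower, at 98.6 against 100.7. FKBP4 encodes FKBP52, the co-chaperone that competes with FKBP51 for the receptor complex and favours its entry into the nucleus. The mean normalized count was 138 for FKBP5 and 5176 for FKBP4, on MANE Select transcripts of 3750 and 3715 bases. FKBP4 was therefore 37.9 times higher per kilobase, and FKBP5 held 2.57% of the pair's level. The ratio was 77.2 per union of all exons and 74.6 per longest transcript, so that FKBP4 was higher with each length. FKBP5 is on the minus strand of chromosome 6 from 35573585 to 35728583, and it stood at the 41.9 percentile per kilobase.

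PER1 took the middle place among the period genes. Its mean normalized count was 382, compared with 936 for PER3 and 117 for PER2, and the shares of the family's level per kilobase were 33.0%, 59.6% and 7.41%. PER3 was 1.80 times higher than PER1 per kilobase of transcript and 2.62 times higher per kilobase of coding sequence. PER1 lies on the minus strand of chromosome 17 from 8140472 to 8156506 and stood at the 50.1 percentile of all genes, or at 30.03 among genes whose mean normalized count reached 10. Exons of UTS2 on the opposite strand cover 10.7% of the PER3 exonic bases, with a mean normalized count of 2.70 for UTS2.

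**Figure D3:**
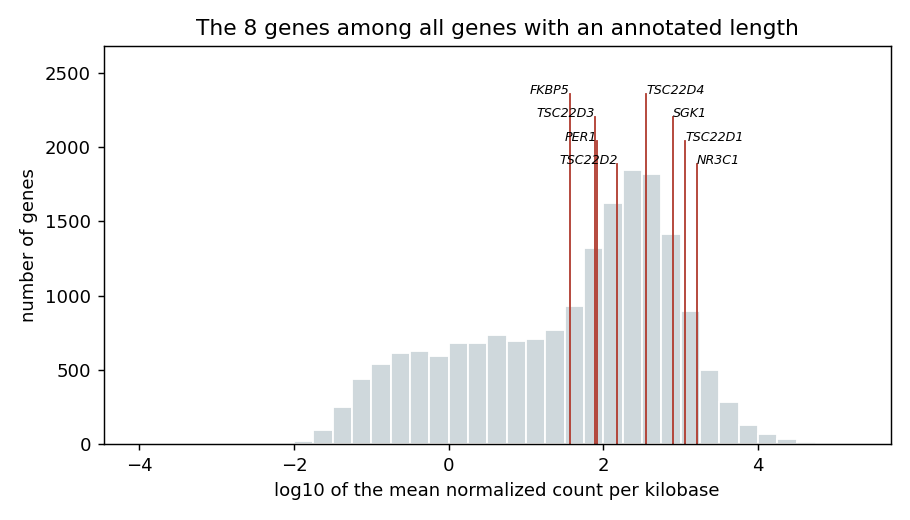
Number of genes (y axis) by the log10 of the mean normalized count per kilobase (x axis) for the 18322 genes with an annotated length, with a red line at each of the 8 genes. FKBP5, TSC22D3, PER1 and TSC22D2 lie near the centre, and TSC22D4, SGK1, TSC22D1 and NR3C1 lie in the upper part.

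The machinery that holds the receptor was abundant. All 12 chaperone and co-chaperone genes listed for the receptor had a mean normalized count of 10 or more, as did 68.5% of all listed genes. The median percentile per kilobase of the 12 genes was 94.3, against a middle of 50 for all genes. HSP90AA1 and HSP90AB1, which encode the inducible and constitutive forms of cytosolic HSP90, had mean normalized counts per kilobase of 32552 and 22200. PTGES3, the gene of the co-chaperone p23, had 6628 per kilobase, and the lowest of the list was BAG1 at 419, above 5 of the 8 genes described. The lowest was instead PPID at 1131 per coding length and PPP5C at 387 per longest transcript. The 13 coregulators were also all above that minimum, with a median percentile of 75.6. Per kilobase of transcript, SMARCA4, the ATPase of SWI/SNF, had the highest level at 837, and NRIP1, a corepressor, the lowest at 58.0. The top place changed with the length. Per union of all exons it went to MED1 at 421, with SMARCA4 at 300. Per coding length it went to HDAC2 at 3801, with SMARCA4 at 945.

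Genes that supply or remove the hormone were scarce. Of 8 such genes, 4 had a row to analyse and only H6PD, which makes NADPH in the endoplasmic reticulum, reached a mean normalized count of 10, with 1893. That minimum was reached by 68.5% of all listed genes. HSD11B2, which inactivates cortisol, had 3.01, the steroid 21-hydroxylase gene CYP21A2 had 0.345, and the drug and steroid exporter ABCB1 had 1.01. HSD11B1, which regenerates cortisol, CYP11A1, CYP17A1 and CYP11B1 had no row to analyse.

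Other genes known to be induced by glucocorticoids in various tissues were spread over the whole range. Of 20 such genes, 17 had a mean normalized count of 10 or more, as did 68.5% of all listed genes. The median percentile per kilobase of the 20 genes was 68.5, beside 66.6 for the 8 genes described. ERRFI1, an inhibitor of EGFR signalling, was the highest at 8573 per kilobase, followed by the metallothionein MT2A at 6101. The place of MT2A depended on the length. CEBPD, at 2807, was above MT2A per union of all exons (2677) and per longest transcript (2709). The MAP kinase phosphatase DUSP1 had 350 per kilobase and the transcription factor KLF9 had 131, both above TSC22D3, PER1 and FKBP5. ZBTB16, a target in many cell types, had a mean normalized count of 1.98, TFCP2L1 had 1.10 and the CDK inhibitor gene CDKN1C had 7.196. MT2A and MT1X belong to a family of near-identical genes, so their counts are uncertain where reads map to more than 1 of them. These levels do not show that glucocorticoid acted on the genes, since other signals also regulate them and no culture was treated with glucocorticoid. The study grew BT-549 cells in medium with fetal bovine serum and insulin, and the glucocorticoid content of that medium is not given.

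Partners of the TSC22D proteins, which act with WNK kinases in the control of cell volume, were for the most part present. Of 8 such genes, 7 had a mean normalized count of 10 or more, as did 68.5% of all listed genes. The median percentile of the 8 partner genes was 63.7 per kilobase. OXSR1, a kinase downstream of WNK, had 1084 per kilobase, WNK1 had 816, and the pseudokinase gene NRBP1 had 753 compared with 356 for NRBP2. WNK2 was the lowest with a mean normalized count of 7.44, while the mean normalized counts of WNK3 and WNK4 were 578 and 64.8. Per kilobase of transcript, TSC22D1 (1144) was higher than each of the 8 partner genes, and TSC22D3 was lower than all but WNK3, WNK4 and WNK2. Both orders changed with the length used. Per kilobase of coding sequence, OXSR1 (3097) was above TSC22D1 (2118), and TSC22D3 (293) was above the partner gene STK39 (210). Per union of all exons, TSC22D3 (35.4) was below WNK3 (50.5).

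**Figure D4:**
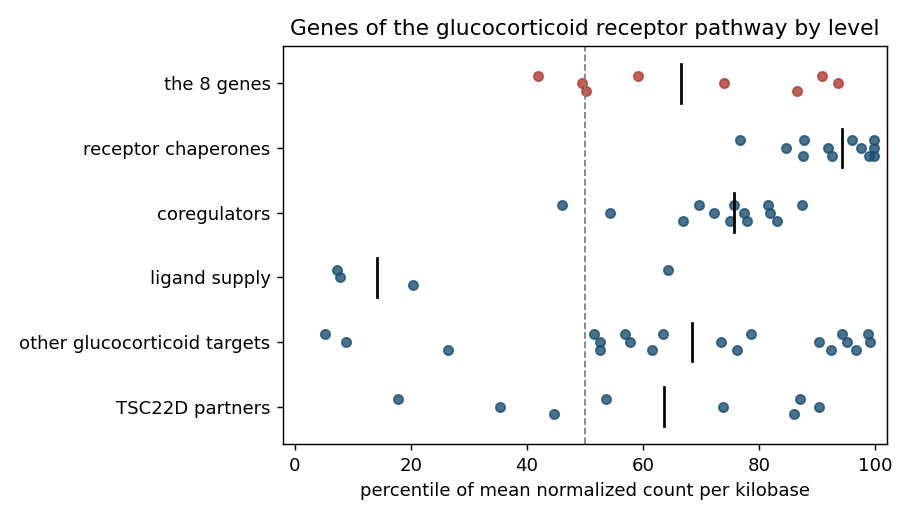
Percentile of the mean normalized count per kilobase among all genes (x axis) for the 8 genes and for 5 lists of pathway genes, with 1 point per gene, a black line at the median of each list and a dashed line at 50. The chaperones (median 94.3) gather at the upper end, and 3 of the 4 ligand supply genes lie below 25.

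The promoters of the 8 genes were searched for the letters of the receptor's DNA element. The choice of genes used no promoter sequence, but it took known targets of the receptor, so the search is not independent of it. RefSeq windows of 300 bases, from 250 bases before to 50 after a transcript start on GRCh38.p14, matched 7 of the 8 genes and numbered 23, since several genes have alternative starts whose windows partly overlap. The full palindrome, taken as AGAACA followed after 3 bases of any kind by its reverse complement TGTTCT, was in 0 of the 23 windows, and in 1 of 35116 windows of all genes. In this exact form the palindrome is so rare that finding none does not set these promoters apart. Its half-site AGAACA alone, sought on both strands and so counted within the palindrome too, was in 3 of the 23 windows (13.0%), compared with 14.8% of all windows and 11.0% of the windows of listed genes. The matches were 1 window each of FKBP5, SGK1 and TSC22D1. They are shown because they are all the half-site matches found, as 30 bases along the gene's strand with the half-site in capitals.

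FKBP5: caccactaccccAGAACAaactcctacctc
SGK1: ggggttcataacAGAACAgggatagccgtc
TSC22D1: tcatagtattttTGTTCTctttgaagtaat

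The FKBP5 stretch lies at chr6:35728566-35728595, and its half-site begins at the first base of the transcript. The SGK1 stretch lies at chr6:134177839-134177868, with the half-site starting 5 bases downstream of the start base of an alternative transcript. The TSC22D1 stretch lies at chr13:44474418-44474447 at an internal start, and its half-site, on the opposite strand, lies 94 to 89 bases before that start. The windows of TSC22D3, TSC22D4, PER1 and NR3C1 held no match, which says only that these letters are not in these windows.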

How the data were processed

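Transcripts of 3 vehicle and 3 DOX cultures of BT-549/tet-WDR5shRNA cells were sequenced. Per the labels and methods, the authors prepared stranded poly(A) libraries, aligned reads to GRCh38 with STAR, and normalized and compared gene counts with DESeq2; which program counted reads, whether it used strand and how low counts were filtered is not given in the sources used here. For RNA extraction the labels give a column kit and the methods Trizol. The deposited mean normalized count is a signal value, the authors' mean over all 6 libraries. The other 5 columns (log2 fold change, its standard error, the test statistic, p-value and adjusted p-value of DOX against vehicle) hold the authors' own comparison and were not used, so no test was made and depth per sample is unknown.

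Symbols were matched to GENCODE 44 (GRCh38), 17729 directly and 593 through a RefSeq synonym, and 1470 did not match. Levels were divided by the length of the MANE Select transcript, or the canonical one where there was none. Unless a background of genes reaching a count of 10 is named, a percentile per kilobase is the percent of the 18322 matched genes below a value. Percentiles with no length correction are among all 19792 listed genes. Promoter windows came from RefSeq on GRCh38.p14, and the stretches shown were checked against hg38. The functions were tested on simulated data. The text names the 8 genes, their paralogues, WDR5, cell type markers, and from each pathway list its highest and lowest genes; DUSP1, KLF9, MT2A, MT1X, ZBTB16, CDKN1C, H6PD, HSP90AB1, PTGES3 and the others of the lists were named after their values were seen. The members and lists were chosen with earlier results of these data known. One paralogue planned for comparison is not reported here. A planned comparison of the TSC22D proteins was not run, as no protein sequences were at hand. Alternatives were other lengths, other minimum counts, another background and the upstream part of the windows. Computation used Python 3.11.15, numpy 2.4.6, pandas 2.3.3 and matplotlib 3.10.9.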

Additional observations from a re-analysis of the deposited data

How the results depend on the processing

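All 8 genes stayed detected at a minimum mean normalized count of 50 or 100, and 50 of the 61 pathway genes reached both 10 and 50. Of all 19792 listed genes, 13548 reached 10, 11649 reached 50 and 10815 reached 100. Genes described here led 3 of the 5 sets of paralogues with every length and with no length correction. The median level of the 8 genes was 256 per kilobase of the MANE Select transcript, 186 with the union of exons, 724 with the coding length and 256 with the longest transcript. Their median percentile was 66.6, and it was 53.0 when the background was restricted to genes above the minimum of 10 and 75.03 with no length correction. In the upstream part of the promoter windows, 1 of 23 (4.35%) held the half-site, against 3 in the whole window, and the share fell to 12.4% for all windows and to 9.11% for those of listed genes. Over the other lengths, the level of SGK1 ranged from 256 to 1618 per kilobase and that of FKBP5 from 13.0 to 100.7. No paired analysis was possible because the file holds no column of a single library, and for the same reason no culture could be left out and no count test run. The TSC22D protein comparison was not run. The pooled mean carries no error, so small differences between levels cannot be judged.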
